A study of Mus musculus with 15 samples.

Results

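The 35 genes described here encode cytosolic and mitochondrial chaperones, their cochaperones and 2 heat shock transcription factors. They were chosen by name: the rows of the deposited count table whose Ensembl identifiers map to the 35 listed symbols. Each symbol matched 1 of the 52636 identifiers in the table, and all 35 passed the filter on low counts that left 13451 genes for testing. The question put to them was whether the libraries taken at 4 h show heat or handling stress. RNA was sequenced from 15 libraries of epiblast-like cells (EpiLCs), mouse pluripotent cells at the stage that follows the naive embryonic stem cell, of the line CRAFR26. This line carries a c-RAF kinase construct that is switched on by 4-hydroxytamoxifen (4OHT) and in turn activates ERK, the last kinase of the MAP kinase cascade. Cells had passed through 2 passages as RSCs, the labels' term, and 48 h of EpiLC culture with bFGF (12 ng/ml), Activin A (20 ng/ml) and XAV939 (1 µM). All groups, the uninduced one included, had 2 h of the FGF receptor inhibitor PD17 (250 nM). The 0h group (n = 3) had no 4OHT, the 2h and 4h groups (n = 4 each) had 2 h or 4 h of 4OHT (250 nM), and the rev group (n = 4) had 4 h of 4OHT followed by 2 h with a MEK inhibitor. Libraries came from 2 clones, clone 4 (7 libraries) and clone 8 (8 libraries). The 0h group held 1 library of clone 4 and 2 of clone 8. With 2 clones of 1 line, p-values measure only the spread between these libraries, which may be technical.

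Heat shock chaperones bind unfolded or newly made proteins and help them reach or regain their shape. HSP70 works in an ATP cycle that J-domain proteins start and that nucleotide exchange factors (HSP110 proteins and BAG proteins) complete, HSP90 takes over signalling proteins such as kinases, small heat shock proteins hold aggregating proteins, and the ring-shaped chaperonin TRiC/CCT folds actin and tubulin. On heat or other proteotoxic stress the factor HSF1, which is held back by chaperones, forms trimers and binds repeats of the bases GAA in alternating orientation upstream of chaperone genes. RAF kinases are themselves clients of HSP90. In bulk RNA, fewer cells that express a gene and less of its RNA per cell cannot be told apart.

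The 4h libraries stood apart from the others in several ways, and these values belong beside each result at 4 h. Their totals ran from 1552022 to 6658950 counts, against 8667880 to 13004556 in the other 11 libraries. Mitochondrially encoded genes took 7.21% to 12.4% of their counts, against 2.67% to 6.98% elsewhere. Over all libraries the 20 most abundant entries took 51.1% to 79.3% of the counts. The summed level of 8 naive embryonic stem cell markers was 54.6 to 201 CPM (counts of a gene set relative to the library size) at 4 h and 17.3 to 29.2 CPM elsewhere, and that of 9 EpiLC markers was 1050 to 1149 CPM at 4 h and 1341 to 1881 CPM elsewhere, with counts for each marker of both lists in every group. The 9 EpiLC markers moved in both directions: at an edgeR adjusted p under 0.05, 2 were higher and 5 lower in 4h vs 0h. In 4h vs 2h, 3 were higher and 6 lower. Of all genes tested, 20.5% were higher and 18.9% lower in the first comparison, and 19.7% and 19.2% in the second. The 6 fibroblast markers summed to 0.377 to 6.11 CPM at 4h and 4.21 to 17.1 CPM elsewhere. Postn was at 0 in all groups, Lum at 0 in all but 0h and Col1a2 at 0 at 4h. The part that depth, mitochondrial share or cell state plays in the results at 4 h was not tested. The 8 genes of the ERK check, among them Spry4, Dusp6 and Egr1, summed to 117 to 156 CPM at 0h, 843 to 1563 CPM at 2h, 426 to 728 CPM at 4h and 231 to 290 CPM in rev. CPM here are scaled by TMM, which sets the typical gene to no change. Scaling by total counts in its place moved the median gene by -0.73 (log2) in 4h vs 0h, -0.57 in 4h vs 2h and 0.45 in rev vs 4h, and all changes below are relative to the typical gene. Once the shift of the median gene is subtracted, each called member kept its direction under total count scaling. That subtraction sets the typical gene to no change, as TMM does, so it is no separate check of the scaling. Members whose sign as scaled turned are named with their values.

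The upstream sequences below show what an HSF1 recognition pattern looks like in these genes, and which members hold a perfect copy. RefSeq start sites on build GRCm38.p6 were matched for 29 of the 35 members, with 250 bases before and 50 bases after each start. Hsf1, Hsp90ab1, Cct4, Hspa8, Hsp90aa1 and Hspa9 had no entry. The pattern of 3 alternating units was searched as GAANNTTCNNGAA and, for the other strand, TTCNNGAANNTTC. The pattern of 2 units was searched as GAANNTTC and TTCNNGAA, each its own reverse complement, and every 3-unit match holds 2-unit matches. A 3-unit match was present for 5 of the 29 members (17.2%) and for 0.662% of the 27025 genes in the table (0.603% of its 32851 windows of 300 bases). A 2-unit match was present for 15 of the 29 members (51.7%) and for 17.0% of all genes (15.1% of windows). Capitals mark the fixed bases of each match, and every sequence reads 5′ to 3′ on the strand of its gene. The 4 stretches of 30 bases come from Chordc1 (chr9:18292260-18292289, plus strand), Dnajb6 (chr5:29735844-29735873, plus strand), Hsph1 (chr5:149636279-149636308, minus strand) and a stretch shared by the diverging genes Hspe1 and Hspd1 (chr1:55088053-55088082, shown on the plus strand, that of Hspe1). The shared stretch lies before the RefSeq start of Hspe1 and before the inner RefSeq start of Hspd1. The 2 windows of 250 bases before the start are those of Hspa1a (chr17:34972157-34972406, minus strand), the inducible HSP70 gene that serves as the standard heat readout, and of Hspb1 (chr5:135887669-135887918, plus strand), the member with the smallest adjusted p in 4h vs 0h.
Chordc1: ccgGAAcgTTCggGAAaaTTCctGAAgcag
Dnajb6: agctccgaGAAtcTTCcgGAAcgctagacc
Hsph1: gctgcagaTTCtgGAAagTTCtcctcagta
Hspe1 and Hspd1: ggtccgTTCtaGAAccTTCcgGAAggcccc
Hspa1a: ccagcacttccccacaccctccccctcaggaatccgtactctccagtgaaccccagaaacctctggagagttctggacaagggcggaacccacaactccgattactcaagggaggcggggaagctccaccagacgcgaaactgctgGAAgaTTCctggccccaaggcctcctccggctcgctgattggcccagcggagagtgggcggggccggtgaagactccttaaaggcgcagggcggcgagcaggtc
Hspb1: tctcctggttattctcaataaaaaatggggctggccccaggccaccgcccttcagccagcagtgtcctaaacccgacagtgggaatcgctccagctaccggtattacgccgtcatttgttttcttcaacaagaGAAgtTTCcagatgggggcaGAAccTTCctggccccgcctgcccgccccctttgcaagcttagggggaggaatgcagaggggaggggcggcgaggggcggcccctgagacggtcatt

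Chordc1 held 3 overlapping 3-unit matches in a run that crosses its start site, and the Hspe1 and Hspd1 stretch held 2. Both genes count among the 5 members through this same stretch. The window before the outer start of Hspd1 (chr1:55088244-55088493) held no match. The Hsph1 match lies just after both of its annotated starts. Hspa1a and Hspa1b each held a 2-unit match 104 bases before the start and no perfect 3-unit match, and Hspb1 held 2-unit matches 117 and 97 bases before its start. Bag3, Cct2, Cct5, Dnaja1, Dnajb4, Fkbp4 and Hspb8 were the other members with a 2-unit match. A match describes the letters of a window and is not a measured binding site. Among the 5 members with a 3-unit match, Chordc1, Dnajb6 and Hsph1 were higher in 4h vs 0h (log2 fold changes of 0.37, 0.41 and 0.41, each negative, at -0.34, -0.33 and -0.30, under total count scaling), Hspe1 was lower (-0.38) and Hspd1 was not called (0.15).

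Across the set, 4 h of induction went with changes in both directions: 22 of the 35 members were called in 4h vs 0h at an edgeR quasi-likelihood adjusted p under 0.05, 11 higher and 11 lower. In the same comparison 39.4% of all 13451 tested genes were called (20.5% higher and 18.9% lower), and the median log2 change was 0.10 over the members and 0.03 over all genes tested. For 4h vs 2h, 16 members were called (5 higher, 11 lower) against 38.9% of all genes (19.7% higher, 19.2% lower), and for rev vs 4h, 16 (10 higher, 6 lower) against 30.8% (15.1% higher, 15.6% lower). For 2h vs 0h, 3 members were called, all higher, against 6.45% of all genes (3.98% higher). For rev vs 0h, 1 member was called, also higher, against 11.2% (6.49% higher). The summed level of the 35 genes was 6838 to 8225 CPM over the 15 libraries on the TMM scale. Abundant members weigh most in that sum, Hsp90ab1 with 1966 to 2359 CPM, and single families within it moved, as given below. Comparisons that share a group share its libraries, so those that involve 4h draw on the same 4 libraries. Thinning all libraries to the smallest left 8880 genes and 13 called members in 4h vs 0h. Members whose calls it ended were Hspa14, Hspa4l, Hsp90aa1, Chordc1, Dnaja2, Dnajb6, Hspe1 and Cct2 in 4h vs 0h, Dnaja1 in 2h vs 0h and rev vs 0h, Hspa14 in 4h vs 2h, and Hspa14, Hspa4, Hspa4l, Hspe1 and Hsf2 in rev vs 4h, and Hspb8 was not tested there.

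**Figure D1:**
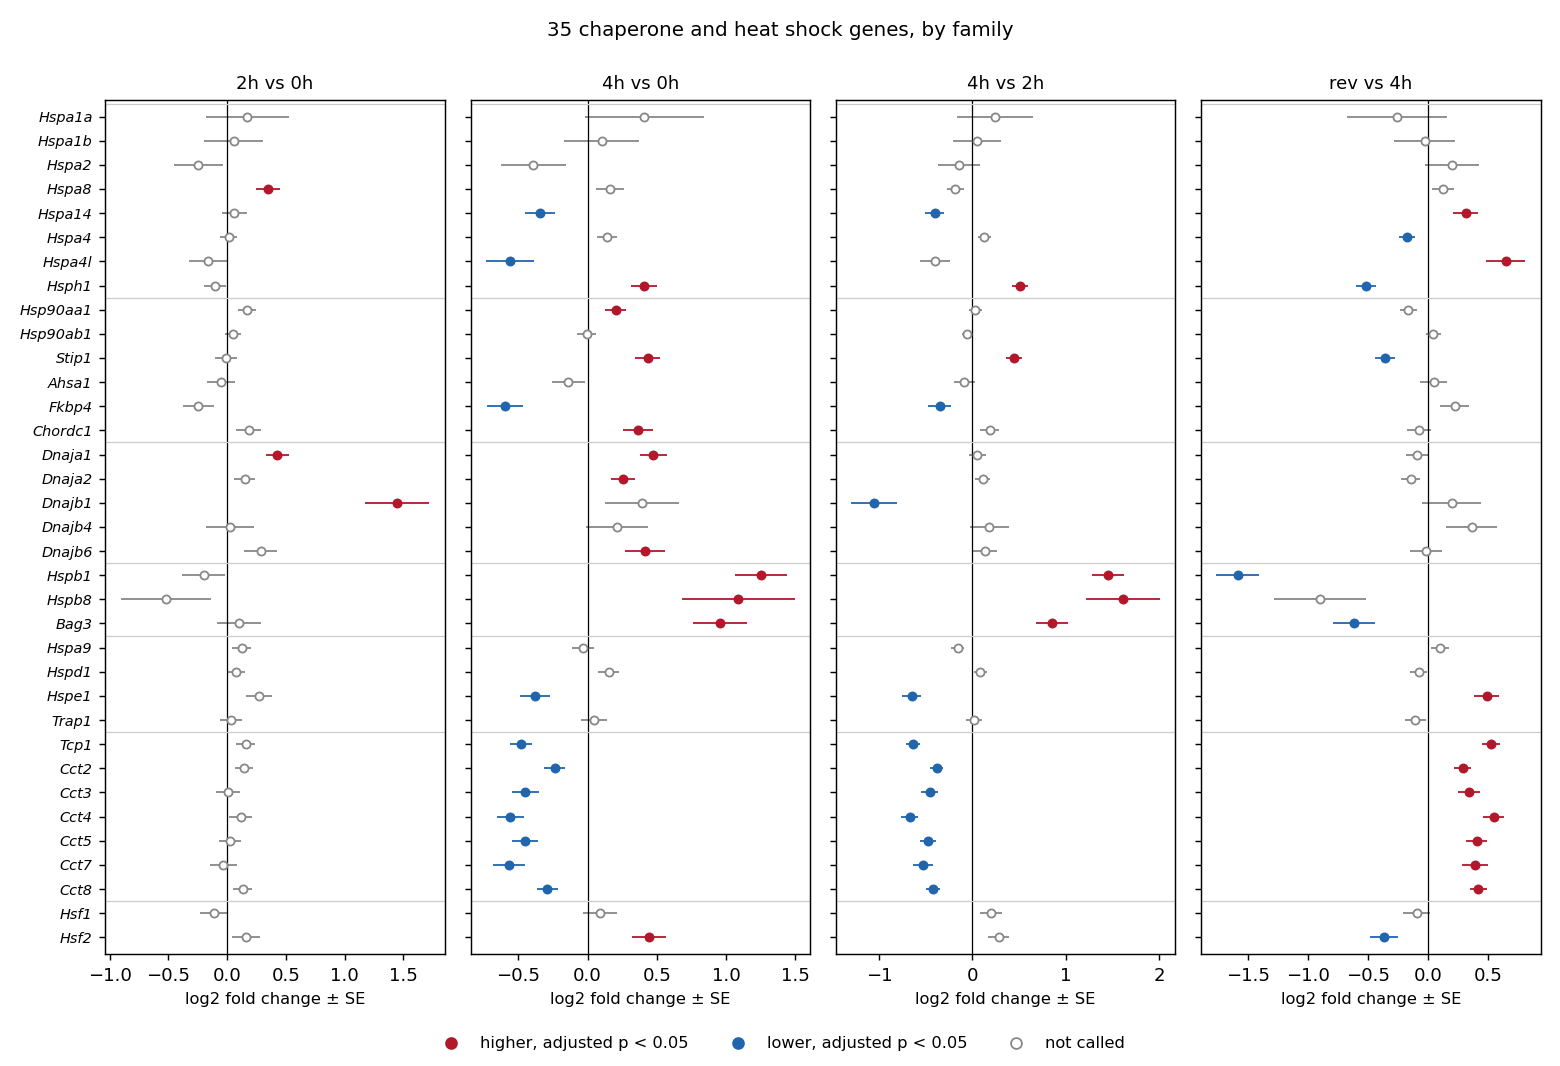
Log2 fold change (x axes, TMM scaled, with the standard error of the edgeR fit as bars) of each of the 35 genes (rows, grouped by family) in 4 comparisons. Filled red points were called higher, filled blue points lower and open points not called. The 7 TRiC/CCT subunits are all lower in 4h vs 0h and 4h vs 2h and all higher in rev vs 4h. Under total count scaling 8 of the 11 members called higher in 4h vs 0h had a negative sign, as did 2 of the 5 in 4h vs 2h, and 3 of the 6 called lower in rev vs 4h had a positive sign.

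The 2 heat shock factors were present at similar, modest levels. Hsf1 (chr15:76477422-76501913, mm10), the master factor of the heat response, is regulated mainly as a protein. Its transcript had 20.3, 18.9 and 20.6 CPM at 0h (clone4_1, clone8_1, clone8_2), and for the later groups, clone 4 libraries first, it had 18.6, 18.4, 18.1 and 18.5 CPM at 2h, 17.7, 23.4, 20.0 and 23.0 CPM at 4h and 20.5, 17.6, 22.1 and 18.8 CPM in rev. The 4h values lay on both sides of those at 0h, and no group comparison called the gene (4h vs 0h 0.09, 95% interval -0.17 to 0.35). Hsf2 (chr10:57486385-57513135), a second factor with roles in development, had 21.6, 23.9 and 24.6 CPM at 0h and 25.7, 28.9, 35.1 and 34.7 CPM at 4h. All 4h values were above all 0h values, and the change was 0.44 ± 0.12 (SE; edgeR adjusted p = 0.00698, or 0.123 without the filter; -0.29 under total count scaling). It fell again in rev vs 4h by 0.37 (edgeR adjusted p = 0.0166), a call lost without rev clone8_1 (adjusted p = 0.0594) and with a positive sign (0.06) under total count scaling.

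The inducible HSP70 genes, the standard readout of heat, stayed low in every group, with no call in any comparison. Hspa1a (chr17:34969190-34972156) had 0.918, 0.735 and 0.969 CPM at 0h, 1.36, 0.884, 1.05 and 0.750 CPM at 2h, 0.611, 0.987, 1.59 and 1.13 CPM at 4h, and 1.33, 0.723, 0.564 and 1.14 CPM in rev. These are 1 to 19 counts a library, with 1 count in 4h clone4_1, and the level of 3 counts, used as the floor, lies between 0.161 and 1.83 CPM. Hspa1b (chr17:34956436-34959238) had 3.62, 6.22 and 4.85 CPM at 0h, 4.54, 5.04, 3.66 and 6.70 CPM at 2h, 3.05, 6.42, 5.92 and 4.52 CPM at 4h, and 6.80, 4.34, 4.93 and 4.05 CPM in rev. In both genes the values of the 4 groups overlapped throughout. The change in 4h vs 0h was 0.41 for Hspa1a (95% interval -0.48 to 1.3, edgeR adjusted p = 0.474) and 0.10 for Hspa1b (-0.46 to 0.67, adjusted p = 0.789). Changes within these intervals were not detectable at this depth.

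The pair is nearly identical, which limits how its reads can be assigned. The windows before the 2 starts match at 247 of 250 positions (98.8%), and 58.8% of the stretches of 50 bases in the Hspa1a transcript also occur in that of Hspa1b. Hspa1a further shares 564 exonic bases with Gm20481 on the opposite strand, and the handling of strand and of reads with several matches is not given in the sources used here. The split of counts between Hspa1a and Hspa1b is therefore uncertain. The floor covers counting error only.

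Among the constitutive HSP70 and HSP110 members, the HSP110 gene rose at 4 h and 2 others fell. Hsph1 (chr5:149614287-149636376) encodes HSP110, an exchange factor for HSP70 and a classical heat-induced gene. It had 123, 106 and 106 CPM at 0h, 121, 112, 95 and 106 CPM at 2h, 172, 188, 137 and 129 CPM at 4h, and 137, 114, 90.5 and 95.1 CPM in rev. All 4h values exceeded all values at 0h and 2h, with clone 4 above clone 8. The change was 0.41 ± 0.09 (SE) in 4h vs 0h (edgeR adjusted p = 0.00148). It was 0.51 ± 0.09 in 4h vs 2h (adjusted p = 7.02e-05) and -0.52 ± 0.09 in rev vs 4h (adjusted p = 9.19e-05). Under total count scaling these changes were -0.30, -0.03 and -0.11, none of them called.

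Hspa8, the constitutive HSP70 and the most abundant HSP70 of the set per length, had 631, 475 and 468 CPM at 0h, 867, 828, 586 and 594 CPM at 2h, 666, 975, 462 and 476 CPM at 4h, and 846, 773, 552 and 578 CPM in rev. Within each clone both 2h values were above the 0h values, and the groups overlapped across clones. Hspa8 was called higher in 2h vs 0h (0.35 ± 0.10, edgeR adjusted p = 0.0421), but leaving out any of the 7 libraries of that comparison ended the call (adjusted p between 0.064 and 0.286). It was not called in 4h vs 0h (0.16, adjusted p = 0.212). Its exons hold 3 snoRNA genes on the same strand.

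Hspa14, a ribosome-associated HSP70, had 40.5, 45.0 and 42.3 CPM at 0h and 27.5, 28.9, 38.9 and 36.9 CPM at 4h, all below 0h. It fell by 0.34 in 4h vs 0h (edgeR adjusted p = 0.0154) and by 0.40 in 4h vs 2h (adjusted p = 0.00314). It was higher in rev vs 4h by 0.31 (adjusted p = 0.0238). All 3 calls were lost after thinning (adjusted p = 0.157, 0.0775 and 0.354). The first was also lost without 0h clone4_1 (adjusted p = 0.0686), and the last without 4h clone4_1, 4h clone4_2 or rev clone4_1 (adjusted p between 0.0728 and 0.0832).

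Hspa4l, an HSP110 relative known from the testis, had 8.21, 12.4 and 12.7 CPM at 0h and 7.94, 7.16, 6.37 and 7.54 CPM at 4h, again all below 0h. It fell by 0.56 in 4h vs 0h (edgeR adjusted p = 0.0128, or 0.0573 without 4h clone8_1) and was higher in rev vs 4h by 0.64 (adjusted p = 0.00417), where each rev value was above each 4h value. Both calls were lost after thinning (adjusted p = 0.239 and 0.266). Hspa4, a further HSP110 protein, had 285 to 382 CPM in all libraries and among the group comparisons was called only in rev vs 4h (-0.18, edgeR adjusted p = 0.0457), a call lost without any of 7 of the 8 libraries (adjusted p between 0.0642 and 0.142) and with the sign 0.20 under total count scaling. Hspa2, the testis HSP70, had 3.10 to 5.61 CPM and was not called in any group comparison on the TMM scale.

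**Figure D2:**
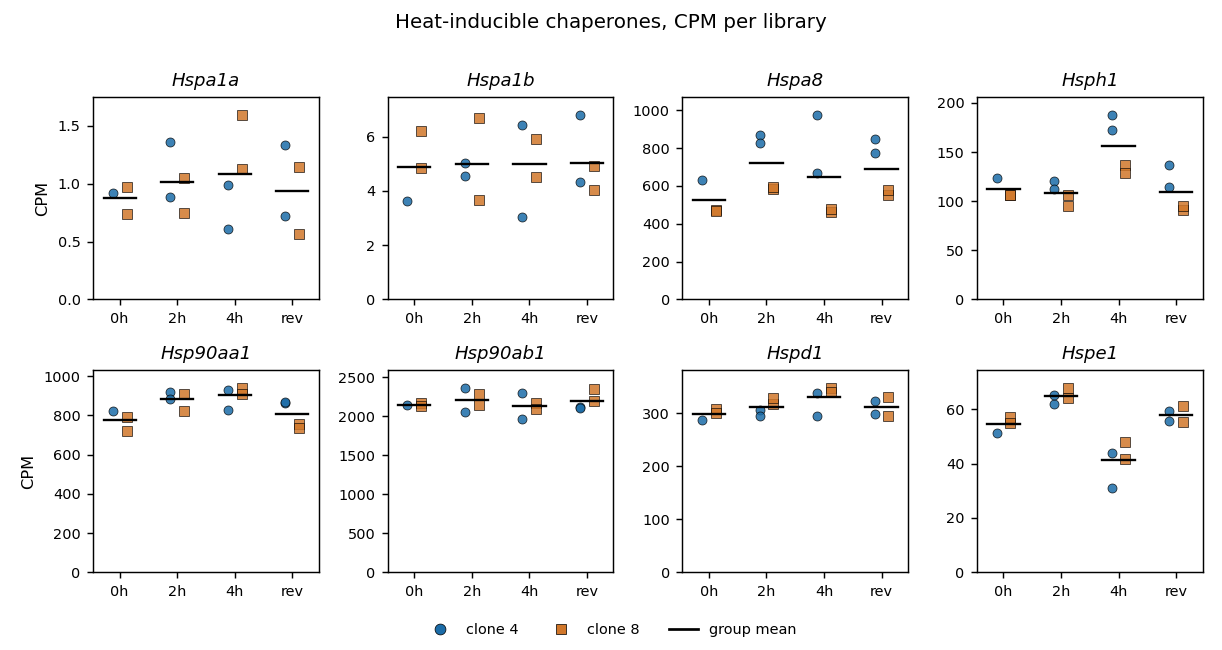
CPM per library (y axes, linear, from 0) of 8 chaperone genes over the 4 groups (x axes), with clone 4 as circles, clone 8 as squares and the group mean as a bar. Hspa1a stays at or below 1.59 CPM and Hspa1b at or below 6.80 CPM in all libraries, Hsp90ab1 is level, and Hspe1 is lowest at 4 h. The 4h values of Hsph1 lie above those at 0h, a change whose sign turns under total count scaling (-0.30).

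HSP90 itself changed little, while its cochaperones moved in both directions. Hsp90ab1, the constitutive form, was the most abundant member per length of exon (724 CPM per kilobase over all libraries). It was not called in any comparison on the TMM scale. It had 2145, 2173 and 2125 CPM at 0h and 1966, 2298, 2167 and 2090 CPM at 4h, on both sides of the 0h values. Hsp90aa1, the stress-inducible form, had 822, 791 and 719 CPM at 0h and 825, 930, 939 and 910 CPM at 4h. Its lowest 4h value was just above the highest 0h value. The change in 4h vs 0h was 0.20 ± 0.08 (edgeR adjusted p = 0.037), and -0.53 under total count scaling. The call was lost without any of the 7 libraries other than 4h clone4_1 (adjusted p between 0.0636 and 0.336). It was also lost in 8 of 10 other settings, all but DESeq2 and the fit with no clone term.

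Stip1 (chr19:7020702-7039967) encodes the adaptor HOP that passes clients from HSP70 to HSP90. It had 172, 189 and 206 CPM at 0h, 181, 188, 195 and 177 CPM at 2h, 213, 283, 249 and 265 CPM at 4h, and 183, 189, 212 and 204 CPM in rev. Each 4h value was above each value of the other 3 groups. The change was 0.43 ± 0.09 in 4h vs 0h (SE; edgeR adjusted p = 0.000797), 0.45 ± 0.08 in 4h vs 2h (adjusted p = 0.000259) and -0.36 ± 0.08 in rev vs 4h (adjusted p = 0.0025), with -0.28, -0.09 and 0.04 under total count scaling.

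Chordc1, an HSP90 cochaperone with a zinc-binding domain, had 31.4, 33.4 and 34.3 CPM at 0h and 45.2, 43.2, 42.8 and 38.8 CPM at 4h. All 4h values were above 0h (0.37 ± 0.11, edgeR adjusted p = 0.0119; 0.0808 without 0h clone4_1), and the sign was negative (-0.34) under total count scaling. That call was also lost after thinning (adjusted p = 0.549) and without the filter (0.259). Fkbp4, the HSP90-binding immunophilin FKBP52 that serves steroid receptors, had 370, 485 and 474 CPM at 0h, 333, 243, 347 and 485 CPM at 2h, 197, 202, 391 and 345 CPM at 4h, and 288, 227, 423 and 355 CPM in rev. Within each clone all 4h values were below those at 0h, while the groups overlapped across clones because clone 8 was higher. Fkbp4 fell by 0.59 in 4h vs 0h (edgeR adjusted p = 0.0015) and by 0.35 in 4h vs 2h (adjusted p = 0.0302), and neither was called with no clone term (0.112 and 0.416). The second call was lost without 2h clone4_1, 2h clone8_2, 4h clone4_1, 4h clone4_2 or 4h clone8_2 (adjusted p between 0.059 and 0.12). Ahsa1, which stimulates the HSP90 ATPase, had 49.5 to 76.5 CPM and was not called in any group comparison on the TMM scale.

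Of the 5 J-domain genes, Dnajb1 and Dnaja1 were higher at 2 h, and Dnaja1, Dnaja2 and Dnajb6 at 4 h. Dnajb1 (chr8:83608193-83612653), the HSP40 that works with HSP70 in refolding, had 22.1, 31.5 and 29.9 CPM at 0h, 110, 108, 53.9 and 56.8 CPM at 2h, 31.8, 37.3, 44.2 and 38.1 CPM at 4h, and 62.0, 45.5, 37.8 and 33.5 CPM in rev. All 2h values were above all others except for rev clone4_1, and the 2 clone 4 values at 2h were well above those of clone 8. The change was 1.45 ± 0.27 in 2h vs 0h (SE; edgeR adjusted p = 0.00764) and -1.05 ± 0.25 in 4h vs 2h (adjusted p = 0.00466). Both calls held in each fit that left out 1 library and under each other setting tried. Each 4h value was still just above each 0h value, without a call in the model with 1 change for both clones (0.39, adjusted p = 0.263).

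The other J-domain genes moved less. Dnaja1, a farnesylated HSP40 of the cytosol, had 47.6, 49.1 and 44.6 CPM at 0h, 61.5, 75.3, 66.2 and 55.2 CPM at 2h, 68.4, 71.6, 63.3 and 63.7 CPM at 4h, and 66.1, 68.7, 56.7 and 58.9 CPM in rev. All 12 libraries with 4OHT were above the 3 without it. It was called higher in 2h vs 0h (0.43, edgeR adjusted p = 0.0101), 4h vs 0h (0.48, adjusted p = 0.000707; -0.25 under total count scaling) and rev vs 0h (0.38, adjusted p = 0.0151), and was the only member called in rev vs 0h by this fit.

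The 2h and rev calls of Dnaja1 were lost without 0h clone4_1 (adjusted p = 0.118 and 0.146) and without 0h clone8_2 (0.0521 and 0.0661). Its exons overlap Gm6297 and Smu1 on the opposite strand and Mir207 on its own. Dnaja2, its close relative, had 132, 135 and 129 CPM at 0h and 145, 172, 159 and 159 CPM at 4h, all above 0h (0.26, edgeR adjusted p = 0.0216; -0.47 under total count scaling). That call was lost without 5 of the 7 libraries (all but 0h clone8_1 and 4h clone4_1, with adjusted p between 0.0683 and 0.124). Dnajb6, a suppressor of aggregation, had 11.1, 9.56 and 10.2 CPM at 0h and 11.6, 11.8, 15.3 and 15.8 CPM at 4h, all above 0h (0.41, adjusted p = 0.0258; -0.33 under total count scaling). It lost its call without 0h clone8_1, 0h clone8_2, 4h clone8_1 or 4h clone8_2 (adjusted p between 0.0947 and 0.119). Dnajb4 had 1.82 to 8.40 CPM and was not called in any group comparison.

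The largest rises at 4 h were in the small heat shock proteins and in Bag3, whose product links small heat shock proteins to HSP70 and to selective autophagy. Hspb1 (chr5:135887919-135889563), which encodes HSP27 and is a target of the p38 and MK2 kinases as a protein, had 7.67, 13.2 and 15.4 CPM at 0h, 8.74, 6.01, 10.2 and 13.1 CPM at 2h, 20.2, 14.1, 38.9 and 35.1 CPM at 4h, and 8.34, 6.19, 9.59 and 9.65 CPM in rev. The 4h values were above all 2h and rev values, and above 0h within each clone. The change was 1.25 ± 0.19 in 4h vs 0h (SE; edgeR adjusted p = 2.33e-05), 1.45 ± 0.17 in 4h vs 2h (adjusted p = 1.3e-06) and -1.59 ± 0.18 in rev vs 4h (adjusted p = 7.82e-07). These calls held without each library in turn, and under total count scaling the changes were 0.56 (adjusted p = 0.121), 0.91 (0.0074) and -1.17 (0.0012).

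Bag3 (chr7:128523616-128546981) had 13, 11.7 and 12.0 CPM at 0h, 14.4, 17.4, 12.9 and 11.6 CPM at 2h, 34.8, 40.7, 16.4 and 15.1 CPM at 4h, and 16.4, 19.7, 13.5 and 16.2 CPM in rev. Every 4h value was above every 0h value, the 2 clone 4 libraries of 4h stood well above all others, and the 2 of clone 8 lay within the range of 2h and rev. The change was 0.95 ± 0.19 in 4h vs 0h (SE; edgeR adjusted p = 0.000577), 0.85 ± 0.17 in 4h vs 2h (adjusted p = 0.000586) and -0.62 ± 0.17 in rev vs 4h (adjusted p = 0.00952, or 0.0587 without 4h clone4_2). Under total count scaling Bag3 kept these directions and was called in none of the 3 (0.24, 0.31 and -0.22).

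Hspb8, a small heat shock protein that binds the BAG3 protein, had 1.84, 0.802 and 1.45 CPM at 0h, 0.567, 1.24, 1.31 and 0.696 CPM at 2h, 1.83, 2.47, 3.87 and 3.02 CPM at 4h, and 1.19, 2.58, 1.69 and 0.934 CPM in rev. The 4h values were above all 2h values and rest on 3 to 17 counts a library. It was called higher in 4h vs 2h (1.61 ± 0.39, edgeR adjusted p = 0.0027) and in 4h vs 0h (1.09 ± 0.40, adjusted p = 0.0366). The second call was lost without 0h clone8_1, 0h clone8_2, 4h clone8_1 or 4h clone8_2 (adjusted p between 0.0603 and 0.182). It also missed the threshold with no clone term (0.0518), from these 2 groups alone (0.0521) and with a block for each clone and replicate number. Under total count scaling the changes were 1.01 and 0.31, neither called (adjusted p = 0.0538 and 0.574). The 3 genes summed to 53.2 to 59.2 CPM in the 4h libraries and to 22.5 to 28.8 CPM in the other 11. That sum was near equal in the 4 libraries of 4h although Bag3 supplied most of it in clone 4 and Hspb1 in clone 8.

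**Figure D3:**
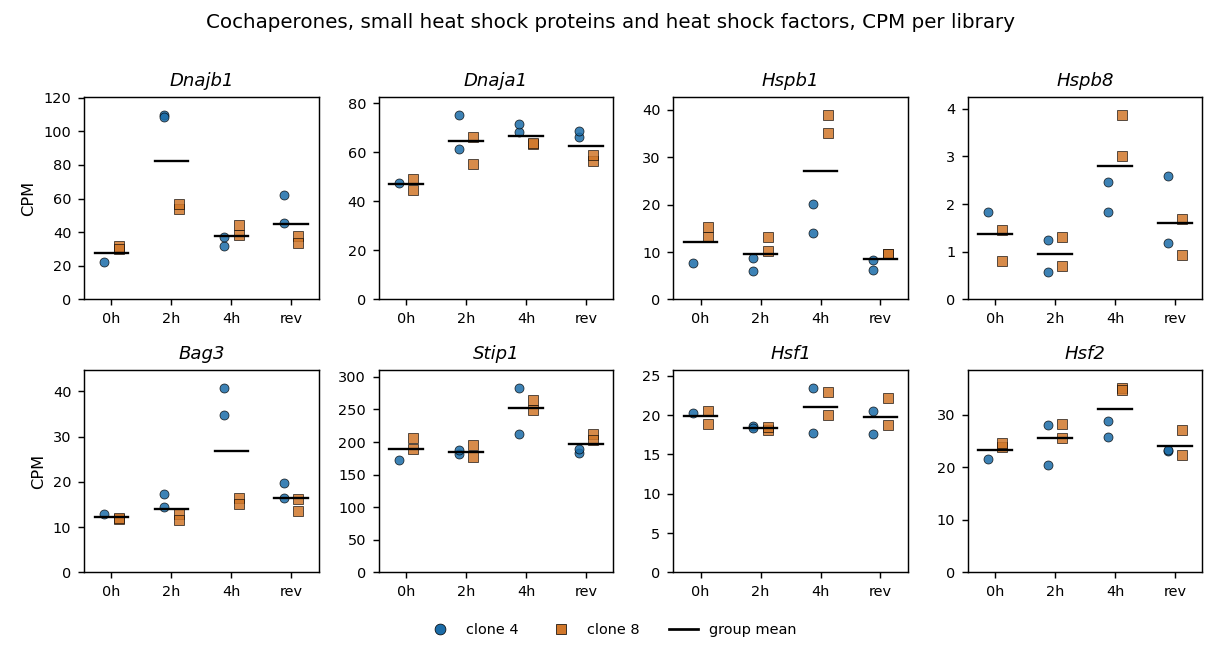
CPM per library (y axes, linear, from 0) of J-domain genes, small heat shock proteins, Bag3, Stip1 and the heat shock factors over the 4 groups (x axes), with clone 4 as circles, clone 8 as squares and the group mean as a bar. Dnajb1 peaks at 2h with 53.9 to 110 CPM, Hspb1 reaches 38.9 CPM in clone 8 at 4h, and Bag3 reaches 40.7 CPM in clone 4 at 4h.

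The mitochondrial chaperones were level apart from Hspe1. Hspe1 (chr1:55088132-55091307) encodes HSP10, the lid of the HSP60 chamber, and had 51.2, 57.0 and 55.0 CPM at 0h, 62.1, 65.2, 67.8 and 64.3 CPM at 2h, 31.2, 43.9, 48.0 and 41.8 CPM at 4h, and 55.5, 59.4, 61.2 and 55.3 CPM in rev. All 4h values were below all others. Hspe1 fell by 0.38 in 4h vs 0h (edgeR adjusted p = 0.0089) and by 0.65 in 4h vs 2h (adjusted p = 3.43e-05), and was higher in rev vs 4h by 0.48 (adjusted p = 0.000945). Its partner Hspd1 (chr1:55077835-55088243), which encodes HSP60 and is read in the other direction, had 288, 309 and 301 CPM at 0h and 338, 294, 348 and 341 CPM at 4h. It was not called in any comparison (4h vs 0h 0.15, edgeR adjusted p = 0.114). The exons of the pair overlap by 112 bases on opposite strands. Hspa9, the mitochondrial HSP70, had 304 to 382 CPM and Trap1, the mitochondrial HSP90, had 64.1 to 78.0 CPM. Neither was called in any comparison on the TMM scale. The share of counts from mitochondrially encoded genes was highest at 4 h, where Hspe1 was lowest, and its part in this fall was not tested. After thinning all libraries to the smallest, Hspe1 was not called in 4h vs 0h (adjusted p = 0.203) or rev vs 4h (0.0737).

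All 7 listed subunits of the chaperonin TRiC/CCT fell together at 4 h and returned in rev. Tcp1, the subunit that gave the complex its name, had 216 ± 17.2 CPM at 0h (SD, n = 3), 242 ± 4.62 at 2h, 156 ± 9.70 at 4h and 224 ± 13.4 in rev (SD, n = 4 each). Cct4 had 179 ± 3.84 CPM at 0h (SD, n = 3), 192 ± 12.8 at 2h, 120 ± 20.0 at 4h and 175 ± 11.2 in rev (SD, n = 4 each). Cct2 moved least, with 286 ± 20.0 CPM at 0h (SD, n = 3), 319 ± 13.5 at 2h, 244 ± 14.3 at 4h and 298 ± 8.40 in rev (SD, n = 4 each). In each of the 7 genes every 4h value was below every 0h value and every 2h value, and every rev value was above every 4h value. Over all genes, such a gap was found in 18.1% (lower in 4h vs 0h), 13.3% (lower in 4h vs 2h) and 11.9% (higher in rev vs 4h).

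The log2 changes of the subunits in 4h vs 0h were -0.57 (Cct7), -0.56 (Cct4), -0.48 (Tcp1), -0.45 (Cct3), -0.45 (Cct5), -0.29 (Cct8) and -0.24 (Cct2), with edgeR adjusted p between 7.75e-05 and 0.0156. In 4h vs 2h they lay between -0.67 (Cct4) and -0.38 (Cct2), and in rev vs 4h between 0.29 (Cct2) and 0.54 (Cct4), with all 7 called in both. Per library, Tcp1 had 147, 164, 164 and 148 CPM at 4h, Cct3 had 141, 157, 195 and 168 CPM, Cct4 had 101, 118, 148 and 114 CPM, and Cct5 had 137, 165, 183 and 173 CPM. Cct7 had 182, 164, 185 and 159 CPM, Cct8 had 164, 154, 190 and 174 CPM and Cct2 had 264, 241, 244 and 230 CPM at 4h. The summed level of the 7 subunits was 1135 to 1309 CPM at 4h and 1509 to 1824 CPM in the other 11 libraries.

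The calls of 4h vs 2h and rev vs 4h held for all 7 subunits under each alternative tried, total count scaling and thinning included. In 4h vs 0h only Cct2 lost its call, after thinning (adjusted p = 0.111), without 0h clone4_1 (0.08) and without 0h clone8_1 (0.0614). In clone 4 alone 7 of 7 subunits were called lower in 4h vs 2h (13.8% of all genes), and in clone 8 alone also 7 of 7 (13.1%). Fewer passed in the other comparisons: 6 of 7 (clone 4, 13.4% of all genes) and 3 of 7 (clone 8, 12.4%) were called lower in 4h vs 0h, and 5 of 7 (8.57%) and 4 of 7 (11.5%) were called higher in rev vs 4h. Tcp1, Cct7 and Cct8 overlap exons of other genes, most of them on the opposite strand. The remaining ring subunit with a wide tissue range, Cct6a, was outside the list of 35 and is added here after its values were seen. It fell by 0.32 in 4h vs 2h (edgeR adjusted p = 0.0058), was higher in rev vs 4h by 0.28 (adjusted p = 0.0168) and was not called in 4h vs 0h (-0.15, adjusted p = 0.194).

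**Figure D4:**
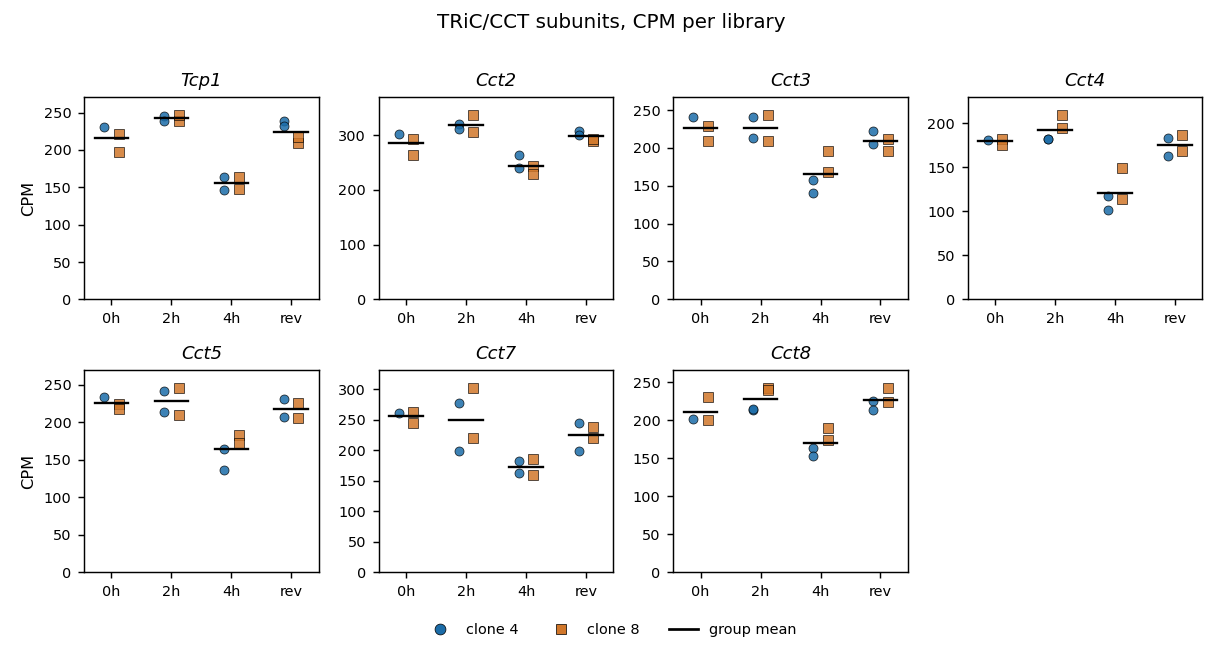
CPM per library (y axes, linear, from 0) of the 7 listed TRiC/CCT subunits over the 4 groups (x axes), with clone 4 as circles, clone 8 as squares and the group mean as a bar. In each panel the 4h libraries of both clones lie below the libraries of the other groups, and the summed level is 1135 to 1309 CPM at 4h against 1509 to 1824 CPM elsewhere.

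In the additive model, which gives 1 clone difference over all groups, 7 of the 35 members were called between clone 8 and clone 4 (3 higher and 4 lower in clone 8), a share near the 18.5% of all genes (10.4% higher and 8.11% lower). Dnajb4 (1.1 ± 0.15, edgeR adjusted p = 1.65e-05), Hspb1 (0.76 ± 0.13, adjusted p = 0.000209) and Fkbp4 (0.61 ± 0.09, adjusted p = 9.23e-05) were higher in clone 8. Hspa8 (-0.58 ± 0.07, edgeR adjusted p = 2.84e-06), Bag3 (-0.53 ± 0.13, adjusted p = 0.00559), Hsph1 (-0.33 ± 0.06, adjusted p = 0.000646) and Hspa4 (-0.17 ± 0.05, adjusted p = 0.0143) were lower. Under total count scaling Bag3 (edgeR adjusted p = 0.108), Hsph1 (0.340) and Hspa4 (0.733) lost these calls, and Hspa4 lost its call after thinning too. For Dnajb4, all 8 libraries of clone 8 (5.04 to 8.40 CPM) were above all 7 of clone 4 (1.82 to 4.54 CPM).

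The response to induction also differed between the clones in 2 members. Within single clones, 4h vs 0h called 27.1% (clone 4) and 26.5% (clone 8) of all genes, 4h vs 2h called 27.3% and 26.9%, and rev vs 4h called 17% and 23.4%. For 4h vs 2h, 1 member was called for a clone difference, against 3.14% of all genes: Dnajb1 fell by 1.65 in clone 4 and by 0.43 in clone 8, a difference of 1.23 ± 0.21 (edgeR interaction, adjusted p = 0.00169). That call held without each library in turn and was lost under total count scaling. For 4h vs 0h, 1 member was called, against 3.87%: Bag3 rose by 1.55 in clone 4, while its value in clone 8 was 0.41 (adjusted p = 0.0901), a difference of -1.14 ± 0.28 (adjusted p = 0.0219). The 4h vs 0h value of clone 4 rests on 1 library at 0h.

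For rev vs 4h, 2 members were called for a clone difference, against 2.8% of all genes. Bag3 fell by 1.07 in clone 4 and had -0.08 in clone 8 (difference 0.99 ± 0.25, edgeR adjusted p = 0.0341), and Dnajb1 was higher by 0.63 in clone 4 and had -0.21 in clone 8 (difference -0.84 ± 0.21, adjusted p = 0.0334). The Bag3 differences were lost without 0h clone8_1, 0h clone8_2, 4h clone4_2 or 4h clone8_2 in 4h vs 0h (adjusted p between 0.0645 and 0.0718), and without 4h clone4_2, 4h clone8_1, 4h clone8_2, rev clone4_1 or rev clone8_2 in rev vs 4h (between 0.0675 and 0.172). The Dnajb1 difference in rev vs 4h was lost without any of 6 of the 8 libraries, all but 4h clone4_2 and rev clone4_2 (between 0.0585 and 0.211). Hspb1 rose in each clone alone (1.13 in clone 4, edgeR adjusted p = 0.00659, and 1.37 in clone 8, adjusted p = 0.000155), with a difference of 0.24 ± 0.35 (adjusted p = 0.8). In this model with separate clones Dnajb1 was also called higher in 4h vs 0h, by 0.65 in clone 4 (adjusted p = 0.0136) and by 0.42 in clone 8 (adjusted p = 0.0399).

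**Figure D5:**
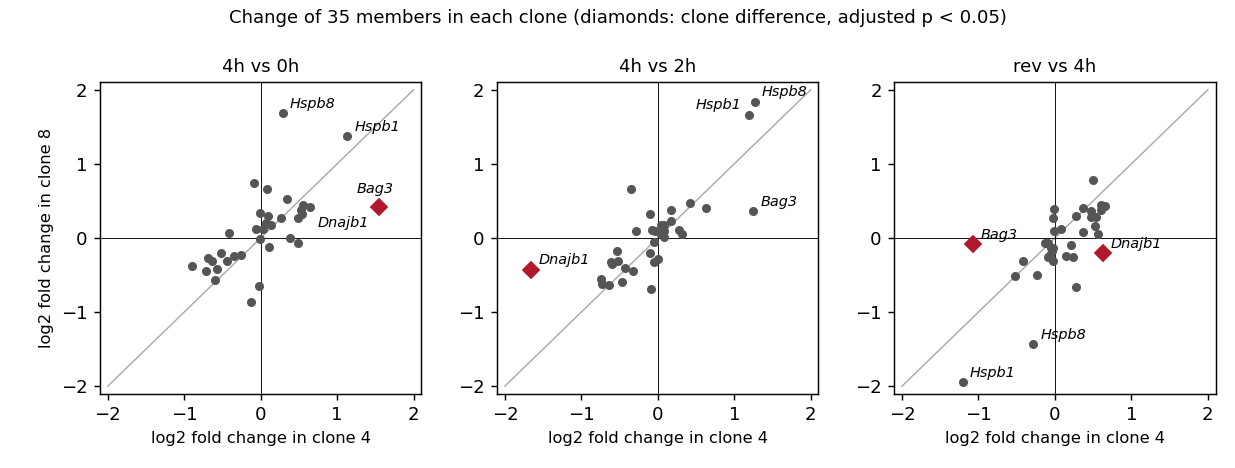
Log2 fold change in clone 4 (x axes) and in clone 8 (y axes) of the 35 genes (points) in 3 comparisons, with the line of equal change. Red diamonds mark genes with a called clone difference: Bag3 in 4h vs 0h (1.55 against 0.41), Dnajb1 in 4h vs 2h (-1.65 against -0.43) and both in rev vs 4h.

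Read as a heat signature, the set was mixed at 4 h. Of 17 members known as heat-inducible HSF1 targets, a list chosen with these data known, 7 were called higher in 4h vs 0h (Hsph1, Hspb1, Hsp90aa1, Dnaja1, Bag3, Chordc1 and Stip1, of which Hsph1, Hsp90aa1, Dnaja1, Chordc1 and Stip1 turn sign under total count scaling), 3 lower (Hspe1, Fkbp4 and Hspa4l) and 7 were not called. Their median was 0.21, against 0.03 over all genes tested. In clone 8 alone 6 were called higher and 1 lower, with a median of 0.29 (0.02 over all genes). Within that clone 26.5% of all genes were called, with 12.4% lower. Clone 4, with 1 library at 0h, had a median of 0.38 (0.004 over all genes). Those not called with 1 change for both clones include Hspa1a, Hspa1b, Hspa8 and Dnajb1. In the model with separate clones Dnajb1 was called higher in clone 8. The same list had 4 members higher and 3 lower in 4h vs 2h (median 0.05, against -0.01 over all genes), and 2 higher and 4 lower in rev vs 4h (median -0.08, against 0.02). Of all genes, 4h vs 0h called 20.5% higher and 18.9% lower, 4h vs 2h called 19.7% and 19.2%, and rev vs 4h called 15.1% and 15.6%. The 3 of 17 called lower in each of the first pair are therefore near the share of all genes. The 7 of 17 called higher in 4h vs 0h are above that share on the TMM scale.

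Immediate early genes respond to handling and dissociation as well as to ERK itself. Of the 14 listed, 8 were called higher and 0 lower in 2h vs 0h (3.98% of all genes were called higher), 4 higher and 2 lower in 4h vs 0h, 0 higher and 9 lower in 4h vs 2h (19.2% of all genes lower), and 1 higher in rev vs 4h. Egr1 (5.32, edgeR adjusted p = 0.000153) and Junb (2.05, adjusted p = 0.0341) had the largest rises in 4h vs 0h. Atf3, a stress-induced factor, had a mean of 4.65 CPM at 0h and 0.210 CPM at 4h, and with Btg2 it was 1 of the 2 called lower. That 4h mean lies below the floor of 3 counts in the 4h libraries (0.683 to 1.83 CPM), so the size of the Atf3 fall is uncertain. The counts above assume 1 change for both clones. In rev vs 4h clone 4 alone had 4 calls, all falls (median -0.68), while clone 8 had 5, all rises (median 0.29). Of all genes, 17% were called there in clone 4 in either direction, and 11.5% were called higher in clone 8. A clone difference was called there for 5 of the 14, against 2.8% of all genes. At 4 h against 0h, clone 8 had 1 rise and 4 falls (median 0.11), where 12.4% of all genes were called lower. Clone 4, with 1 library at 0h, had a median of 0.46. Both clones had 9 falls and 0 rises in 4h vs 2h, where 13.8% (clone 4) and 13.1% (clone 8) of all genes were called lower. The cause was not tested. Since ERK induction and handling move the same genes, their parts at 2 h cannot be told apart here.

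Other chaperones and cofactors outside the 35 had more calls lower than higher at 4 h. Of 44 tested from a list of 47, 5 were called higher and 15 lower in 4h vs 0h, 5 higher and 15 lower in 4h vs 2h, and 16 higher and 4 lower in rev vs 4h. The shares of all genes were 20.5% higher and 18.9% lower, 19.7% and 19.2%, and 15.1% and 15.6% in these comparisons. The list's median was -0.09 in 4h vs 0h, against 0.03 over all genes. Hsf5 (1.55, edgeR adjusted p = 0.00393) and the J-domain gene Dnajb5 (1.24, adjusted p = 6.02e-06) rose most at 4 h against 0h, and the HSP70 exchange factors Bag5 (-1.34, adjusted p = 0.000108) and Bag2 (-1.13, adjusted p = 0.0189) fell most. Bag5 was higher again in rev vs 4h by 1.26 (edgeR adjusted p = 0.000179) and Bag2 by 1.31 (adjusted p = 0.00719).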

How the data were processed

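RNA was ribosomal RNA depleted and sequenced from 15 libraries, and the authors deposited 1 table of raw counts per Ensembl gene identifier. STAR 2.5.3a, bcl2fastq 2.19.1 and the build mm10 are named in the submitters' processing notes. The counting tool, its annotation and its use of strand are not given in the sources used here. Per the labels, 1 further 0h sample failed the submitters' quality control and is not analysed here. Symbols came from GENCODE M21, which held 52489 of the 52636 identifiers.

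In R 4.3.3, genes were kept by filterByExpr of edgeR 4.0.16 (minimum count 10, minimum total 15), which left 13451 genes. Library sizes were summed over these, scaled by TMM, and all groups were fitted with clone as a term by glmQLFit with robust estimation. Calls are quasi-likelihood tests at a Benjamini-Hochberg adjusted p under 0.05 over all genes tested. A second model gave each clone its own change. The fits were tested on simulated data. Totals were 1552022 to 13004556 counts, and 3 counts equalled 0.161 to 1.83 CPM, a floor for counting error only. No pair of libraries of a group agreed within sampling noise (chi-square per degree of freedom 6.21 to 260).

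All members are named. From the other lists at most the 2 called genes with the largest change in each direction are named, with exceptions stated. The members and lists were chosen with earlier results of these data known. Alternatives were DESeq2 1.42.0 and its size factors, total count scaling, no filter, leaving out the 20 most abundant and the mitochondrial genes, thinning to the smallest library, only the compared groups, no clone term, a replicate block, an earlier quasi-likelihood fit (chosen after seeing the data) and each library left out.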

Additional observations from a re-analysis of the deposited data

Results flagged for a closer look

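The change of 2 of the 35 members differed between the clones by the interaction test of edgeR. Each such result is given with the difference of clone 8 minus clone 4. For Dnajb1 the difference in 4h vs 2h was 1.23 (adjusted p = 0.00169) and that in rev vs 4h was -0.84 (adjusted p = 0.0334). For Bag3 the difference in 4h vs 0h was -1.14 (adjusted p = 0.0219) and that in rev vs 4h was 0.99 (adjusted p = 0.0341). The 4h values of clone 4 behind them come from the libraries of 1552022 and 6658950 counts, and the part of depth was not tested. In 0 of 105 groups of 4 libraries (35 members, 3 groups) did 1 library lie apart from the rest by Dixon's criterion, where chance gives about 1 in 20.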

How the results depend on the processing

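Total count scaling gave the opposite sign for 13 called member results; members that were not called turned sign too, among them Hspa1a (0.41 to -0.40), Hspa1b (0.10 to -0.71) and Dnajb1 (0.39 to -0.33) in 4h vs 0h. The called ones in 4h vs 0h were Hsph1 (-0.30), Hsp90aa1 (-0.53), Stip1 (-0.28), Chordc1 (-0.34), Dnaja1 (-0.25), Dnaja2 (-0.47), Dnajb6 (-0.33) and Hsf2 (-0.29). In 4h vs 2h they were Hsph1 (-0.0268) and Stip1 (-0.0868), and in rev vs 4h Hspa4 (0.20), Stip1 (0.0450) and Hsf2 (0.0557). Over all genes it called 6697 in 4h vs 0h, 476 of them higher, where TMM called 5300, 2755 of them higher. No member was called higher in 4h vs 0h under total count scaling. Hsp90ab1 (-0.73, edgeR adjusted p = 0.0219), Hspa9 (-0.73, 0.0205), Trap1 (-0.69, 0.0315), Ahsa1 (-0.89, 0.0049) and Hspa2 (-1.16, 0.0077) were called lower, unlike on the TMM scale. The median gene moved by -0.73 there.

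Counts of members called moved as follows. In 2h vs 0h the 3 members were 1 under total count scaling, 2 with the replicate block and 1 to 2 without single libraries (1 without 0h clone4_1 or 0h clone8_2). In 4h vs 0h the 22 were 13 after thinning, which left 8880 genes, 20 with the replicate block and 17 to 22 without single libraries. In 4h vs 2h the 16 were 15 to 18 without single libraries and 17 with the replicate block, and in rev vs 4h the 16 were 14 to 16 and 15. In rev vs 0h the 1 was 0 under total count scaling, 2 without the filter, 4 without the abundant and mitochondrial genes, 3 by the earlier fit, 7 from these groups alone, 1 with the replicate block and 0 to 1 without single libraries (0 without 0h clone4_1 or 0h clone8_2). Between the clones the 7 were 4 under total count scaling and 7 to 8 without single libraries.

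For clone differences, the 1 in 4h vs 2h was 2 with DESeq2 size factors, 0 under total count scaling and 1 to 2 without single libraries. The 1 in 4h vs 0h was 0 under total count scaling, 2 without the filter, 0 after thinning and 0 to 2 without single libraries. The 2 in rev vs 4h were 0 under total count scaling, 1 without the abundant and mitochondrial genes, 0 after thinning, 1 by the earlier fit, 1 with DESeq2 and 0 to 2 without single libraries. Except where total counts, thinning, the filter or fewer samples enter by construction, the cause was not tested. Same-numbered libraries of a clone had correlations of their deviations of -0.19 to 0.26. With at most 2 libraries per clone and group, these values cannot decide whether the numbers pair the libraries. The depth of the 4h libraries limits Hspa1a and Hspb8, with 1 to 7 and 3 to 17 counts there.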

Other observations

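Chaperones of the endoplasmic reticulum, which answer to unfolded proteins in the secretory pathway and not to HSF1, had calls in 1 direction at 4 h when both clones share 1 change. Of 16 such genes, 0 were called higher and 8 lower in 4h vs 0h, 0 higher and 9 lower in 4h vs 2h, and 7 higher and 0 lower in rev vs 4h. Over all genes the shares were 20.5% higher and 18.9% lower, 19.7% and 19.2%, and 15.1% and 15.6%. Their median was -0.24 in 4h vs 0h, against 0.03 over all genes tested. In clone 8 alone 0 were called higher and 8 lower in 4h vs 0h (median -0.45), with 12.4% of all genes lower. Clone 4, which has 1 library at 0h, had a median of -0.02. The clone difference in 4h vs 0h was negative for 15 of the 16 (median -0.24, against 0.03 over all genes). In 4h vs 2h a clone difference was called for 1 of the 16, against 3.14% of all genes. The list as a whole was not tested for a clone difference. Herpud1, which serves the degradation of misfolded proteins, had a change of -1.38 in 4h vs 0h, -2.14 in 4h vs 2h and 1.43 in rev vs 4h. Hspa5, the HSP70 of this compartment, had -1.14 in 4h vs 2h and 0.98 in rev vs 4h.

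Genes of the oxidative and metal response moved in both directions. Of 12 such genes, 8 were called higher and 0 lower in 2h vs 0h, 4 higher and 4 lower in 4h vs 0h, 2 higher and 9 lower in 4h vs 2h, and 8 higher and 2 lower in rev vs 4h. In 2h vs 0h 3.98% of all genes were called higher, and the other shares are those given above. The metallothioneins Mt2 and Mt1, which bind zinc and copper, had changes of 2.41 and 1.03 in 4h vs 0h and -1.58 and -0.58 in rev vs 4h. Slc7a11, the cystine importer, had -1.20 in 4h vs 0h and 1.70 in rev vs 4h. All values here are called changes by edgeR on the TMM scale, and the markers and depth of the 4h libraries given in the report stand beside them too.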
